A study of Mus musculus with 9 samples.

Results

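Interferon-stimulated genes were followed across 9 bulk RNA sequencing libraries of sorted mouse hepatic stellate cells. The 37 genes were chosen by name as a set of known interferon-stimulated genes, and all 37 were found among the 35024 gene rows of the deposited table. Hepatic stellate cells are the pericytes of the liver that store vitamin A and become matrix-producing cells after injury. All animals were C57BL/6J mice with floxed Yap1 alleles that received 6 injections of carbon tetrachloride (CCl4), a liver toxin, every 3 days, and cells were taken 2 days after the last one. The YAP-deleted group (LYT006, LYT008, LYT013 and LYT016) also carried LratCre, a Cre recombinase driven by the promoter of Lrat, a gene of vitamin A storage in stellate cells. The control group (LYT004, LYT005, LYT014, LYT015 and LYT017) carried the floxed alleles without Cre, so an effect of Cre itself and of Yap1 loss cannot be told apart. Cells were sorted by the autofluorescence of stored retinoids and lysed directly. The study compared both genotypes to learn what loss of YAP, the transcriptional coactivator of the Hippo pathway, does to stellate cells in injured liver.

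Interferons are secreted proteins that bind cell surface receptors and activate JAK kinases and STAT transcription factors. Type I interferons act mainly through a complex that contains STAT2 and IRF9, whereas much of the response to interferon gamma runs through the factor IRF1. The genes switched on in this way encode sensors of foreign nucleic acid, enzymes and binding proteins that block viral replication, GTPases that attack pathogen vacuoles, and feedback inhibitors. In stellate cells, interferon gamma is known as an inhibitor of activation and collagen production.

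Values are the deposited log2-like values, or normalised counts recovered from them, which are counts divided by a size factor of the library. Recovered totals ran from 14052502 to 31816055 counts per library. Yap1 had 642, 648 and 645 normalised counts in YAP-deleted LYT006, LYT008 and LYT016, against 2902, 2915, 3653 and 3551 in control LYT004, LYT005, LYT015 and LYT017. The library labelled YAP-deleted LYT013 had 2530 counts and the library labelled control LYT014 had 618, so both went against their labels and are shown apart. The Yap1 difference over all 9 libraries was −1.30 log2 units with an exact two-sided permutation p of 0.0794. It was −2.22 over the 7 libraries without them, given with no test because these libraries were singled out by their Yap1 level. Stellate markers were high in every library, with Lrat between 35209 and 69555 normalised counts. Whether the libraries stem from different mice is not stated in the labels, so p-values cover the spread between libraries, which may be partly technical. In bulk RNA, fewer cells of a type and less RNA per cell cannot be told apart.

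Promoter sequence is shown for 10 members as examples of the motifs in these promoters. The part of the motifs in the expression values was not tested. The RefSeq promoter table (GRCm38.p6, 250 bases before to 50 after each start) held 27 of the 37 members. Capitals mark GAAANNGAAA, a form of the interferon-stimulated response element read by IRF proteins and the complex with STAT2 and IRF9, and TTCNNNGAA, the form of site read by STAT dimers. Both strands were searched and overlapping matches counted, as in Bst2, where both motifs share bases, and TTTCNNTTTC is the first motif read on the other strand. All sequences run 5′ to 3′ along the gene.
Isg15: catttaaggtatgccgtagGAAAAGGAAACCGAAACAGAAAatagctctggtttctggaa
Ifit1: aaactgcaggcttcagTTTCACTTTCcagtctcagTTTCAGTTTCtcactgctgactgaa
Ifit3: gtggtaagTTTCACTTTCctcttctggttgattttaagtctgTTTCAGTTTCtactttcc
Ifit3b: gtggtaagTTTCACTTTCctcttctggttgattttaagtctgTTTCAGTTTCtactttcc
Rsad2: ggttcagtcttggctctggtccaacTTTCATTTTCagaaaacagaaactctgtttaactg
Oas1a: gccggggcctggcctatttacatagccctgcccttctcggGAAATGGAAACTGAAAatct
Gbp2: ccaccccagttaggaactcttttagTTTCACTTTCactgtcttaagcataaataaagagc
Gbp7: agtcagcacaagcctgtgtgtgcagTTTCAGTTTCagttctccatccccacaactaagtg
Igtp: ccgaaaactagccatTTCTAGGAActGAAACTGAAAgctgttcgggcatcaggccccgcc
Irf1: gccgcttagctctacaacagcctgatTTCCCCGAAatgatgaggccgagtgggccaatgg

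All 10 stretches lie upstream of the RefSeq start site. In the GENCODE annotation Gbp2 starts at 142620602, inside its stretch. For 9 of the 10 genes, 30 bases after the RefSeq start matched a GENCODE transcript of the same strand. The stretches are chr4:156200856-156200915 on the minus strand for Isg15, chr19:34640769-34640828 on the plus strand for Ifit1, chr19:34583365-34583424 on the plus strand for Ifit3 and chr19:34607761-34607820 on the plus strand for Ifit3b. Rsad2 is at chr12:26456538-26456597 and Oas1a at chr5:120907526-120907585, both on the minus strand. The remaining stretches are on the plus strand, with Gbp2 at chr3:142620579-142620638, Gbp7 at chr3:142530258-142530317, Igtp at chr11:58199496-58199555 and Irf1 at chr11:53769898-53769957. The Ifit3 and Ifit3b stretches were identical base for base, and these neighbouring copies also share much of their transcripts. Igtp had both motifs in the stretch shown, and Irf1 had only TTCNNNGAA in its 300 bases. Gbp7 and Oas1a also had both motifs, with TTCNNNGAA outside the stretch shown. It began at −106 and −87 from the start site in Gbp7 and at −98 in Oas1a. Shares were counted by gene, and a gene counted when any of its promoters matched. GAAANNGAAA was present for 15 of the 27 genes (55.6%), against 4.0% of the 27025 genes in the table. TTCNNNGAA was present for 9 (33.3%), against 9.6% of the genes in the table. Neither motif was in the window of Irf9, Irf7, Trim25, Oasl1, Oasl2, Xaf1 or Ifi44. A match describes letters in a window and is not evidence of binding.

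Every one of the 37 genes was above the lowest deposited value in at least 4 libraries, and all were tested. Levels spanned more than 3 orders of magnitude per transcript length. Irf1, the interferon gamma responsive transcription factor, was highest, with a mean over the 9 libraries of 2801 normalised counts per kilobase of transcript. Bst2, which tethers budding virus to the cell, followed at 2187, the translation-blocking protein gene Ifit3 at 1846 and the vacuole-targeting GTPase gene Iigp1 at 1834. The rank of Irf1 rested on LYT013 and LYT014, with 15613 and 15644 normalised counts, against 2678 to 4329 in the other libraries. Without LYT013 and LYT014, Bst2 and Ifit3 were above Irf1 per kilobase. At the other end were Mx1, an influenza restriction gene known to be disrupted in common laboratory strains, with 9.27 normalised counts per kilobase, and Oas3, a large oligoadenylate synthetase, with 1.25. Mx1 had between 21.3 and 45.5 normalised counts in each library and Oas3 between 2.3 and 12.0, so differences of these 2 genes are understated on the log2-like scale.

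**Figure D1:**
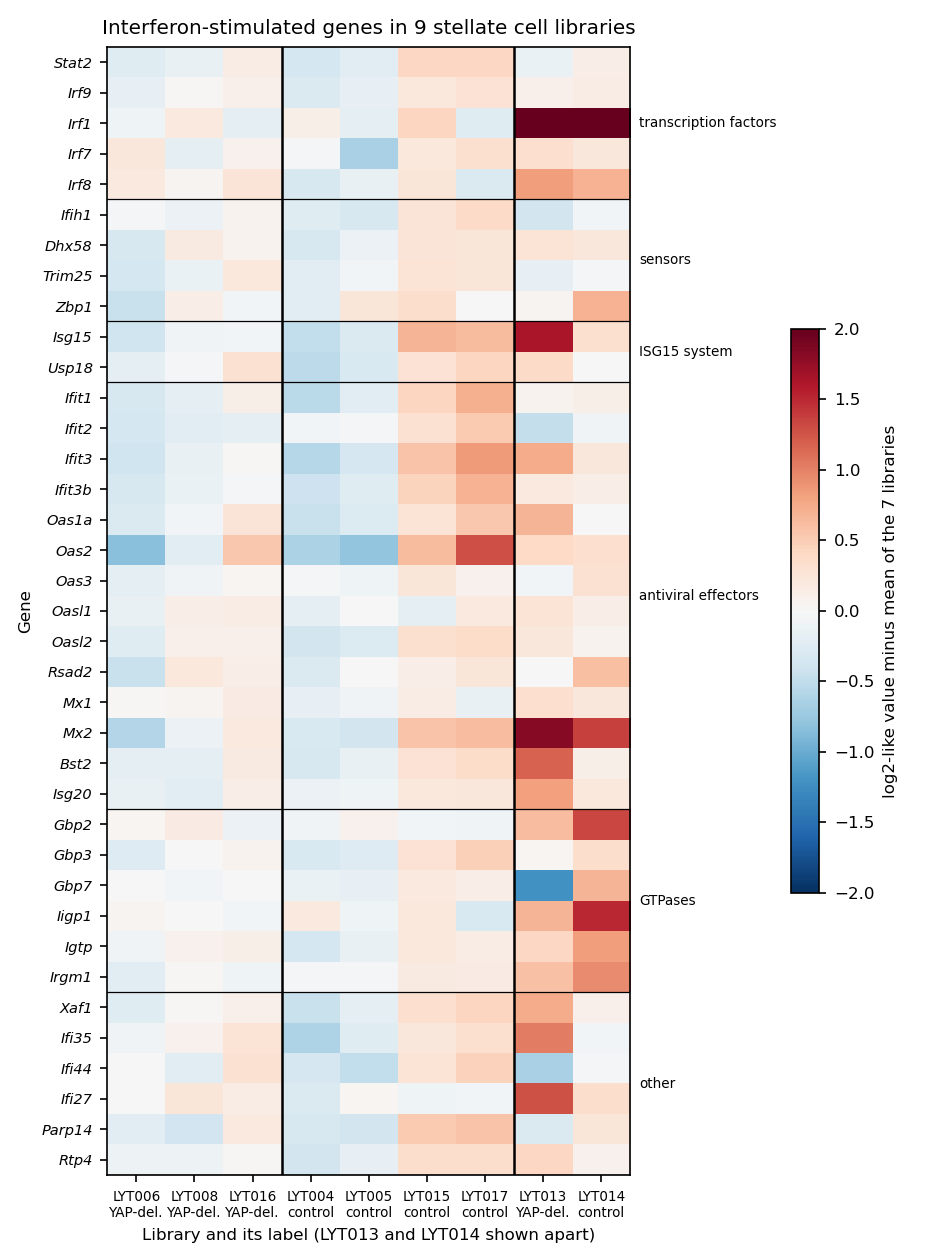
Deposited log2-like values of the 37 interferon-stimulated genes (rows, grouped by role) in 9 libraries (columns), each minus the gene's mean over the 7 libraries whose Yap1 level fits their label. YAP-deleted libraries are on the left, control libraries in the middle, and LYT013 and LYT014 apart on the right, where Irf1 is 2.27 above that mean in both.

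No interferon-stimulated gene passed the test between YAP-deleted and control libraries. Limma, with Benjamini-Hochberg adjustment over all genes, called 0 of 37 in the 9 libraries, where 0% of 17203 tested genes were called. In the 7 libraries it called 0 of 37, where 0.0672% of 16372 genes were called. At an unadjusted p under 0.05 there was 1 member, Ifit2, lower in each comparison. Of all genes, 7.22% were under that p in the 9 libraries (3.69% lower) and 6.41% in the 7 (3.09% lower). Voom, run on recovered counts, called 0 in each comparison, with Ifit2 as the 1 member under an unadjusted 0.05. The median difference of the members, YAP-deleted minus control, was −0.06 log2 units in the 9 libraries, with 15 positive and 22 negative, where 49.1% of all genes were positive, beside a median of −0.004 over all tested genes. In the 7 libraries it was −0.07, with 10 positive and 27 negative, where 48.9% of all genes were positive, beside −0.004. The 95% intervals of the members reached from −1.24 to 1.37 over the 9 libraries, both ends set by Irf1, and from −1.50 to 0.91 over the 7, both set by Oas2.

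Ifit2, whose protein binds viral RNA and restrains its translation, was the member with the clearest separation. It lies at chromosome 19, 34550694 to 34576419 on GRCm38, plus strand. It had 859, 953, 777 and 969 normalised counts in YAP-deleted LYT006, LYT008, LYT013 and LYT016, against 1060, 1079, 1048, 1381 and 1613 in control LYT004, LYT005, LYT014, LYT015 and LYT017. Every YAP-deleted library lay below every control library, in the 9 libraries and in the 7. It was the only member of the 37 without overlap, against 1.15% of genes that were lower without overlap in the 9 libraries and 3.66% in the 7. The difference was −0.43 ± 0.14 log2 units over the 9 libraries (SE, 95% interval −0.75 to −0.12) with a limma adjusted p of 0.649. It was −0.43 ± 0.15 over the 7 (95% interval −0.76 to −0.09) with a limma adjusted p of 0.684. LYT013, with Yap1 near the control level, had the lowest Ifit2 of all, and LYT014, with low Yap1, had the lowest Ifit2 of the control libraries.

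**Figure D2:**
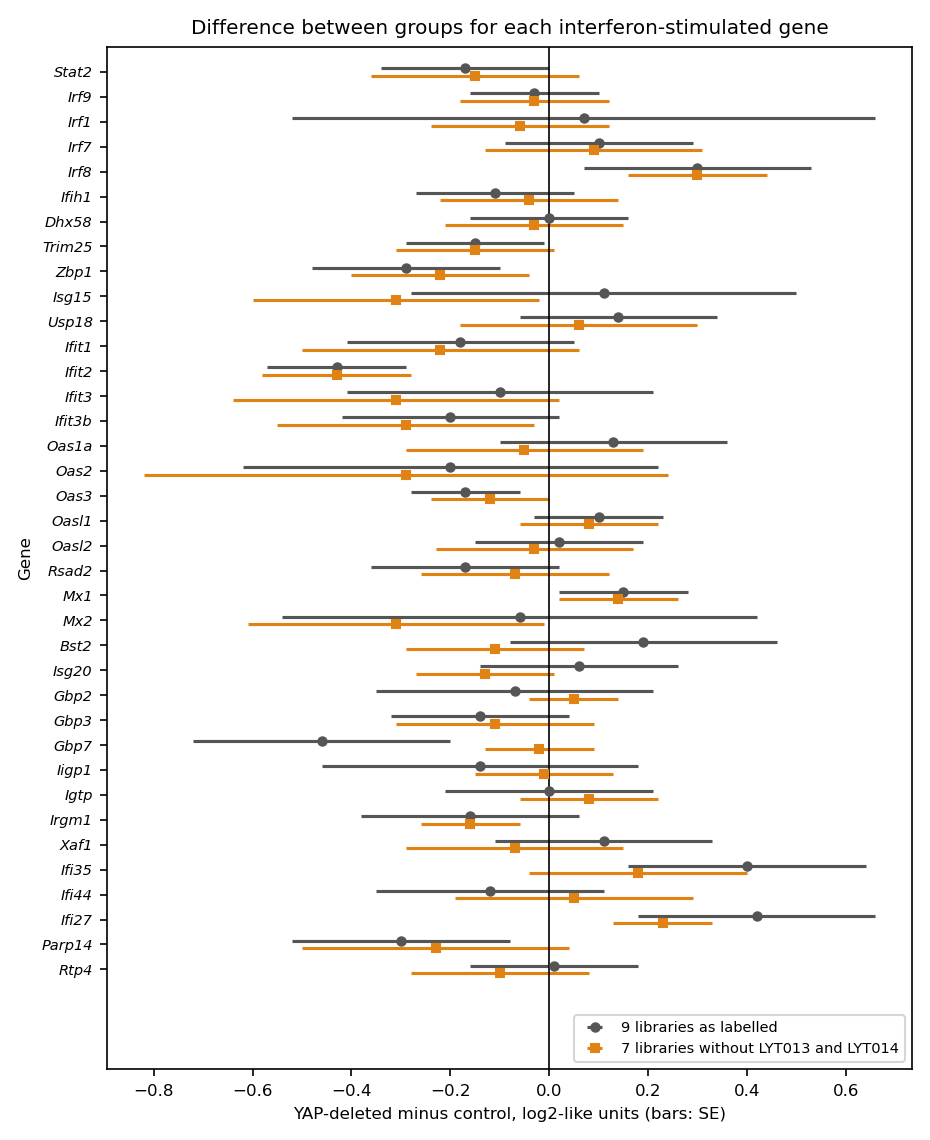
Difference of each interferon-stimulated gene, YAP-deleted minus control, in log2-like units with its standard error, over the 9 libraries as labelled (grey circles) and over the 7 without LYT013 and LYT014 (orange squares). Most bars cross 0, Ifit2 is at −0.43 in both, and Irf1, Mx2 and Gbp7 have wider bars over 9 libraries than over 7.

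Among the 5 transcription factors, 0 passed in either comparison. Irf1 had 2981, 3641, 15613 and 2767 normalised counts in YAP-deleted LYT006, LYT008, LYT013 and LYT016, against 3450, 2765, 15644, 4329 and 2678 in control LYT004, LYT005, LYT014, LYT015 and LYT017. Each group held 1 library far above the rest, LYT013 and LYT014, and the groups overlapped. The difference was 0.07 ± 0.59 log2 units over the 9 libraries and −0.06 ± 0.18 over the 7. Irf8, a factor best known from myeloid and B cells, had 1586, 1448, 2515 and 1667 normalised counts in YAP-deleted LYT006, LYT008, LYT013 and LYT016, against 1098, 1249, 2286, 1653 and 1119 in control LYT004, LYT005, LYT014, LYT015 and LYT017. Over the 7 libraries Irf8 differed by 0.30 ± 0.14 (SE), limma adjusted p = 0.788, with control LYT015 inside the YAP-deleted range. Ptprc, the pan-leukocyte marker, had 11.0 to 31 normalised counts in the same libraries. It is 1 of 15 macrophage and Kupffer cell markers, which summed to 730 to 2640 normalised counts over the 9 libraries. Over the 7 libraries 12 of the 14 tested markers were positive and 2 negative, against 48.9% of all genes positive. Their median was 0.16 and 0 were called. The part of such cells in the Irf8 values was not tested. Stat2 and Irf9, partners in the type I interferon complex, differed by −0.15 ± 0.21 and −0.03 ± 0.15 over the 7 libraries, and Irf7, an amplifier of interferon production, by 0.09 ± 0.22.

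The 4 sensors and their regulators all had differences at or below 0, and 0 passed. Ifih1, which encodes the long double-stranded RNA sensor MDA5, had the highest level per length of them. It had 2392, 2244, 1879 and 2546 normalised counts in YAP-deleted LYT006, LYT008, LYT013 and LYT016, against 2041, 1932, 2345, 2929 and 3173 in control LYT004, LYT005, LYT014, LYT015 and LYT017. The groups overlapped and the difference over the 7 libraries was −0.04 ± 0.18 log2 units. The RNA sensor gene Dhx58, the ubiquitin ligase gene Trim25 and the Z-form nucleic acid sensor gene Zbp1 differed by −0.03 ± 0.18, −0.15 ± 0.16 and −0.22 ± 0.18 over the same libraries.

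Isg15, a ubiquitin-like protein gene at chromosome 4, 156199424 to 156200818 on GRCm38, minus strand, varied more than 4-fold between libraries. It had 547, 699, 2404 and 706 normalised counts in YAP-deleted LYT006, LYT008, LYT013 and LYT016, against 509, 591, 932, 1211 and 1178 in control LYT004, LYT005, LYT014, LYT015 and LYT017. LYT013 alone stood above all others. The Isg15 difference was 0.11 ± 0.39 log2 units over the 9 libraries and −0.31 ± 0.29 over the 7, so its sign changed without LYT013 and LYT014. Of these, LYT014 at 932 lay inside the range of the other control libraries. Usp18, which removes ISG15 from proteins and dampens the type I receptor, differed by 0.14 ± 0.20 over the 9 and 0.06 ± 0.24 over the 7.

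The 14 antiviral effectors had 6 positive and 8 negative differences over the 9 libraries and 2 positive and 12 negative over the 7, and 0 passed. Oas2, an oligoadenylate synthetase that activates RNA decay, had 390, 637, 996 and 1115 normalised counts in YAP-deleted LYT006, LYT008, LYT013 and LYT016, against 460, 406, 955, 1192 and 1903 in control LYT004, LYT005, LYT014, LYT015 and LYT017. Low and high libraries occurred in both groups, and the difference over the 7 libraries was −0.29 ± 0.53 log2 units. Mx2, a dynamin-like GTPase gene, had 140, 214, 983 and 279 normalised counts in YAP-deleted LYT006, LYT008, LYT013 and LYT016, against 183, 172, 707, 382 and 396 in control LYT004, LYT005, LYT014, LYT015 and LYT017. Its 2 highest libraries were LYT013 and LYT014, and the difference over the 7 was −0.31 ± 0.30. Bst2 had 1289, 1297, 3442 and 1690 normalised counts in YAP-deleted LYT006, LYT008, LYT013 and LYT016, against 1175, 1334, 1617, 1819 and 1927 in control LYT004, LYT005, LYT014, LYT015 and LYT017. The Bst2 groups overlapped, with −0.11 ± 0.18 over the 7.

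The groups also overlapped for the remaining effectors. Ifit1 and Ifit3, relatives of Ifit2 in one gene cluster, differed by −0.22 ± 0.28 and −0.31 ± 0.33 over the 7 libraries, and Ifit3b by −0.29 ± 0.26. Of the 31-base words in Ifit3 transcripts, 61.8% also occur in another gene, Ifit3b in each case, so the split of reads between these copies is uncertain. The same holds for Oas1a, with 68.8% shared, nearly all with Oas1g, which differed by −0.05 ± 0.24. Rsad2, the antiviral enzyme viperin, Oasl1, Oasl2 and the exonuclease gene Isg20 differed by −0.07, 0.08, −0.03 and −0.13.

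The 6 interferon-induced GTPases had 0 calls and differences between −0.16 and 0.08 over the 7 libraries. Iigp1 had 4621, 4446, 7216 and 4282 normalised counts in YAP-deleted LYT006, LYT008, LYT013 and LYT016, against 5138, 4209, 12837, 5191 and 3585 in control LYT004, LYT005, LYT014, LYT015 and LYT017. Its highest value by far was in LYT014. Gbp7 had 1703, 1628, 699 and 1703 normalised counts in YAP-deleted LYT006, LYT008, LYT013 and LYT016, against 1538, 1509, 2757, 1956 and 1870 in control LYT004, LYT005, LYT014, LYT015 and LYT017. Gbp7 differed by −0.46 ± 0.26 log2 units over the 9 libraries with a limma adjusted p of 0.649, and by −0.02 ± 0.11 over the 7. LYT013 was its lowest library and LYT014 its highest. Gbp2, Gbp3, Igtp and Irgm1 differed by 0.05 ± 0.09, −0.11 ± 0.20, 0.08 ± 0.14 and −0.16 ± 0.10 over the 7, and 15.9% of the 31-base words of Igtp transcripts also occur in its relative Irgm2.

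The remaining 6 members had no call either. Ifi27, a mitochondrial membrane protein gene, had 879, 1051, 2201 and 973 normalised counts in YAP-deleted LYT006, LYT008, LYT013 and LYT016, against 708, 905, 1133, 821 and 838 in control LYT004, LYT005, LYT014, LYT015 and LYT017. Over the 7 libraries LYT006 was below control LYT005 and the other YAP-deleted values lay above every control value, with a difference of 0.23 ± 0.10 and a limma adjusted p of 0.778. Rtp4, a receptor transport protein that binds viral RNA, had 1887, 1870, 2722 and 2057 normalised counts in YAP-deleted LYT006, LYT008, LYT013 and LYT016, against 1551, 1799, 2158, 2592 and 2606 in control LYT004, LYT005, LYT014, LYT015 and LYT017. Those values overlapped, with a difference of −0.10 ± 0.18 over the 7. Parp14, a large ADP-ribosyltransferase, the interferon-induced gene Ifi44, Ifi35, a binding partner of other interferon-induced proteins, and Xaf1, a proapoptotic protein gene, differed by −0.23, 0.05, 0.18 and −0.07.

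**Figure D3:**
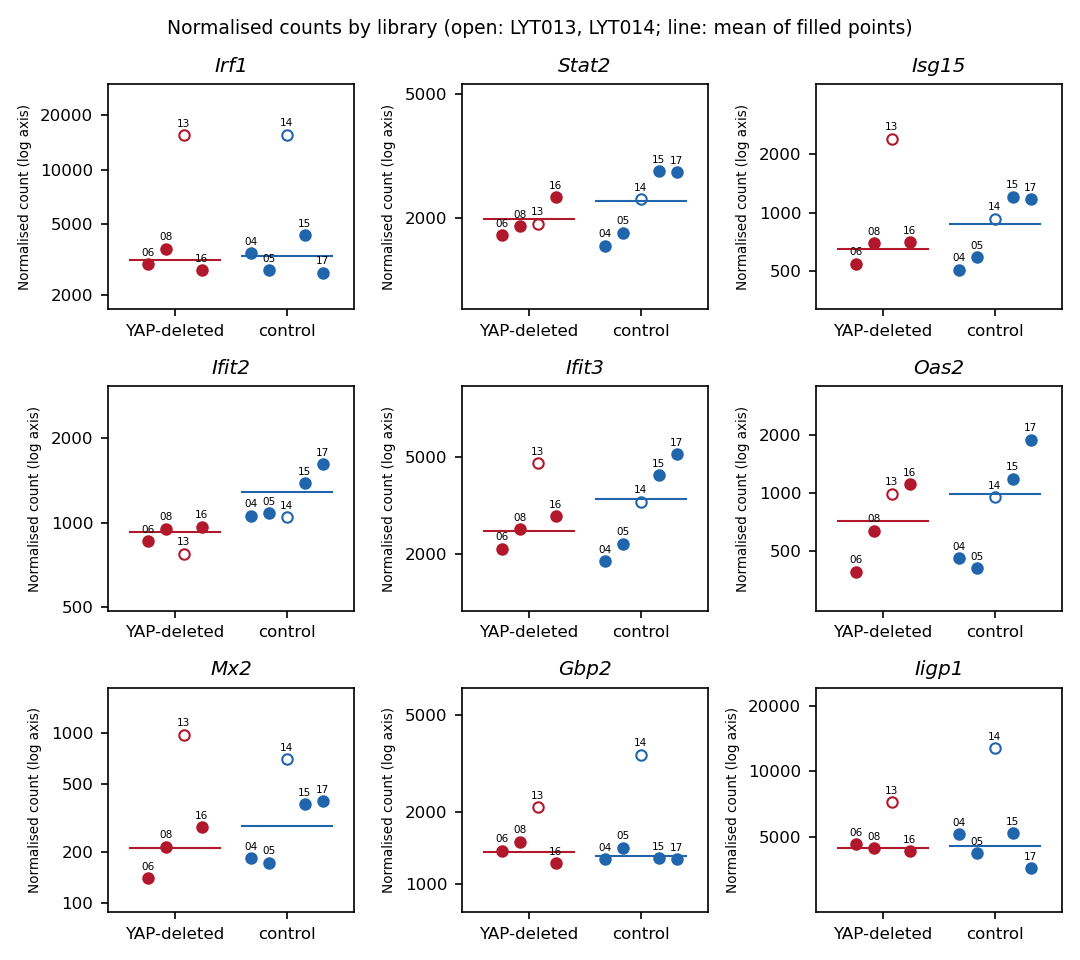
Normalised counts of 9 interferon-stimulated genes in each library on log axes, YAP-deleted left and control right, with the library number beside each point. Filled points are the 7 libraries whose Yap1 level fits their label, lines are their group means, and open points are LYT013 and LYT014, which stand highest for Irf1 and Mx2 while LYT014 stands highest for Gbp2 and Iigp1.

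The median group difference had a different sign in each range of library codes. The standard deviation of the member mean between replicates of a group was 0.32 log2 units over the 9 libraries and 0.31 over the 7. Those values span both code ranges. Between libraries of the same code range it was 0.12 over the 9 libraries, and the medians below are not smaller than that. The codes in the sample titles run from 4 to 8 and from 13 to 17, and the sources used here do not say what they stand for. Among codes 4 to 8 (LYT006 and LYT008 against LYT004 and LYT005), 29 of 37 members were positive, against 49.2% of all genes, with a median of 0.15 log2 units. Among codes 13 to 17 as labelled, 13 were positive and 24 negative, against 49.3% of all genes negative, with a median of −0.13. With LYT013 and LYT014 left out, LYT016 is the only YAP-deleted library, against LYT015 and LYT017. The median of the members was then −0.17, beside 0.003 over all genes. The difference between the code ranges in this contrast was not tested. Ifit2 differed by −0.23 ± 0.09 among codes 4 to 8 and by −0.58 ± 0.22 among codes 13 to 17 as labelled.

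LYT013 and LYT014 carried the largest departures of single members. Irf1 was 4.83 times the mean of the other 7 libraries in LYT013 and 4.84 times in LYT014, and Mx2 was 3.90 times in LYT013 and 2.80 times in LYT014. Of the 37 members, 9 were above all 7 other libraries in both LYT013 and LYT014, against 4.16% of all genes. These were Irf1, Irf8, Mx1, Mx2, Gbp2, Iigp1, Igtp, Irgm1 and Ifi27. The JAK inhibitor gene Socs1 had 296 counts in LYT013 and 319 in LYT014, against 55 to 121 in the rest, and the chemokine gene Cxcl10 had 5890 in LYT013 and 5926 in LYT014, against 766 to 2304.

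The 2 libraries then differed from each other by role. LYT014 was the highest library for 9 members, against 9.26% of all genes, among them 5 of the 6 GTPases. Gbp2 had 3437 normalised counts in LYT014, 2082 in LYT013 and 1222 to 1498 elsewhere. Irgm1 had 2127 in LYT014, 1644 in LYT013 and 918 to 1223 elsewhere. Cxcl9, a chemokine gene known as a target of interferon gamma, had 726 in LYT014, 143 in LYT013 and 69 to 115 elsewhere. Ifng itself was at 0 counts in every library, which allows up to 3 counts per library, for counting error only. Of 7 endothelial markers, 4 (Cdh5, Kdr, Stab2 and Lyve1) were highest in LYT014, with Kdr at 482 against 6.1 to 118 in the others. The mean log2-like value of the list was 8.51 in LYT014, against 6.74 to 7.89 in the others. Its summed level was highest in LYT013, at 3818 normalised counts against 3438 in LYT014, where Clec4g alone gave 3086 in LYT013 and 1849 in LYT014. H2-Ab1, an antigen presentation gene, was also highest there at 169. Their part in the GTPase values was not tested.

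LYT013 was the highest library for 14 members, against 26.8% of all genes, and the lowest for 4, against 26%. Of the 14, 7 had transcripts of up to 2137 bases, such as Isg15, Bst2 and Ifi27, and 7 had longer ones, such as Mx2, Irf8 and Mx1. Its low members were Gbp7, Ifi44, Ifit2 and Ifih1. All 13 members with transcripts of 756 to 2137 bases were above the mean of the other 7 libraries, with a median of 0.74 log2 units. Of the 12 members between 3121 and 7417 bases, 4 were above it, with a median of −0.09. The same order held over all tested genes, where 76.7% of those up to 2137 bases and 30.2% of those of 2960 bases or more were above. In LYT014 the corresponding members were above in 12 of 13 and 9 of 12 cases, and over all genes the shares were 50.5% and 52.3%. The part of transcript length in the LYT013 values was not tested for each gene. Irf1, of 2137 bases, was at 2.27 in both libraries.

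**Figure D4:**
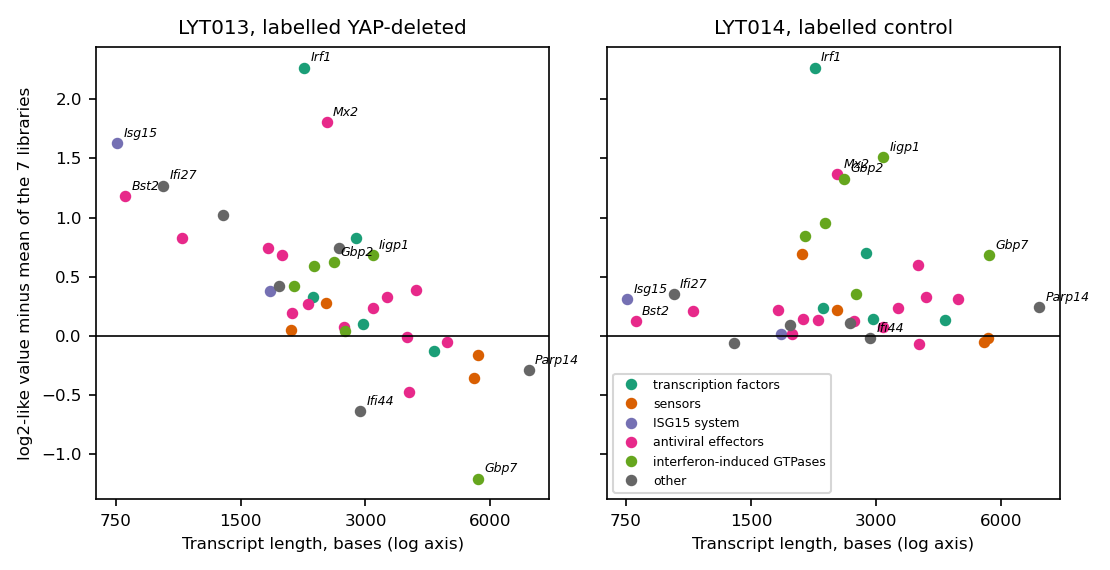
Transcript length in bases (log axis) against the log2-like value minus the mean of the 7 other libraries, for the 37 members in LYT013 (left) and LYT014 (right), coloured by role. In LYT013 the short Isg15, Bst2 and Ifi27 are above 1 and the long Gbp7 is at −1.21, whereas in LYT014 Gbp7 is at 0.68.

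In a comparison chosen after the data were seen, interferon-stimulated genes were higher in library codes 13 to 17. All 37 had a positive difference, codes 13 to 17 minus codes 4 to 8 with group as a covariate, against 52.7% of all genes. The median was 0.42 log2 units, beside 0.014 over all genes. For 16 members every library of codes 13 to 17 lay above every library of codes 4 to 8, against 2.92% of all genes. Limma called 1 member higher, against 0.151% of genes called higher, and 25 were higher at an unadjusted p under 0.05, against 7.88%. The called member was Oas2, with 955 to 1903 normalised counts in codes 13 to 17 and 390 to 637 in codes 4 to 8. Oas2, at chromosome 5, 120730333 to 120749853 on GRCm38, minus strand, differed by 1.25 ± 0.21 with a limma adjusted p of 0.0317. The call was lost on leaving out LYT004, LYT005, LYT008, LYT015 or LYT017 in turn, with limma adjusted p between 0.058 and 0.192 in those 5 fits.

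With the 7 libraries, the limma calls were 17 of 37 higher and 0 lower, against 3.21% of all genes called higher. They were Stat2, Ifih1, Trim25, Isg15, Usp18, Ifit1, Ifit3, Ifit3b, Oas1a, Oas2, Mx2, Bst2, Gbp3, Xaf1, Ifi35, Ifi44 and Parp14. Parp14 differed by 0.74 ± 0.09 with a limma adjusted p of 0.00819, and Stat2 by 0.56 ± 0.09 with 0.0166. By role these were 7 of 14 effectors, 4 of the 6 remaining members, 2 of 4 sensors, both genes of the ISG15 system, 1 of 5 factors and 1 of 6 GTPases. Irf1 differed by −0.02 ± 0.18, Iigp1 by −0.10 ± 0.13 and Gbp2 by −0.13 ± 0.08, the 3 members with a negative value, where 47.6% of all genes were negative. LYT004 was the lowest library for 20 of 37 members, against 13.6% of all genes, and LYT017 the highest for 12, against 9.97%.

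Markers of other cells also differed between the code ranges. All 15 macrophage and Kupffer cell markers were positive and 6 were called higher over the 9 libraries, against 0.151% of all genes. Over the 7 libraries 9 of the 14 tested markers were called higher, against 3.21% of all genes, with a median of 0.82 log2 units. Their summed level was 1584 to 2640 normalised counts in codes 13 to 17 and 730 to 1122 in codes 4 to 8, and none of them was at 0 in every library. Clec4f, a Kupffer cell marker, had 47 to 118 counts in codes 13 to 17 and 4.9 to 30 in codes 4 to 8. Of the 7 endothelial markers 5 were positive and 2, Pecam1 and Vwf, negative, with 0 called over the 9 libraries. Over the 7 libraries Clec4g was called higher and Vwf lower. The summed endothelial levels overlapped, at 1825 to 3818 in codes 13 to 17 and 1008 to 1925 in codes 4 to 8. All 5 hepatocyte markers were positive, with a median of 0.57 log2 units over the 9 libraries and 0 called, and 1, Cyp3a11, called higher over the 7. Their summed levels overlapped, at 272 to 1152 in codes 13 to 17 and 359 to 851 in codes 4 to 8. Of 10 stellate markers 8 were positive, with a median of 0.20 over the 9 libraries and 0.29 over the 7, where 1, Colec11, was called higher. All 10 cell cycle genes had negative differences. Limma called 0 of them lower over the 9 libraries, against 0.477% of all genes, and 8 over the 7, against 4.68%, with Mki67 at 68 to 1351 in codes 13 to 17 and 160 to 6434 in codes 4 to 8. T and NK cell markers summed to at most 6.4 counts in any library, with Gzma at 0 throughout, B cell markers to at most 13.8, and neutrophil markers to at most 9.6. With the macrophage marker mean as a covariate 0 members were called and the median was 0.84. With the cell cycle mean 0 were called and the median was 0.51. The part of these cells in the member values was not tested.

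**Figure D5:**
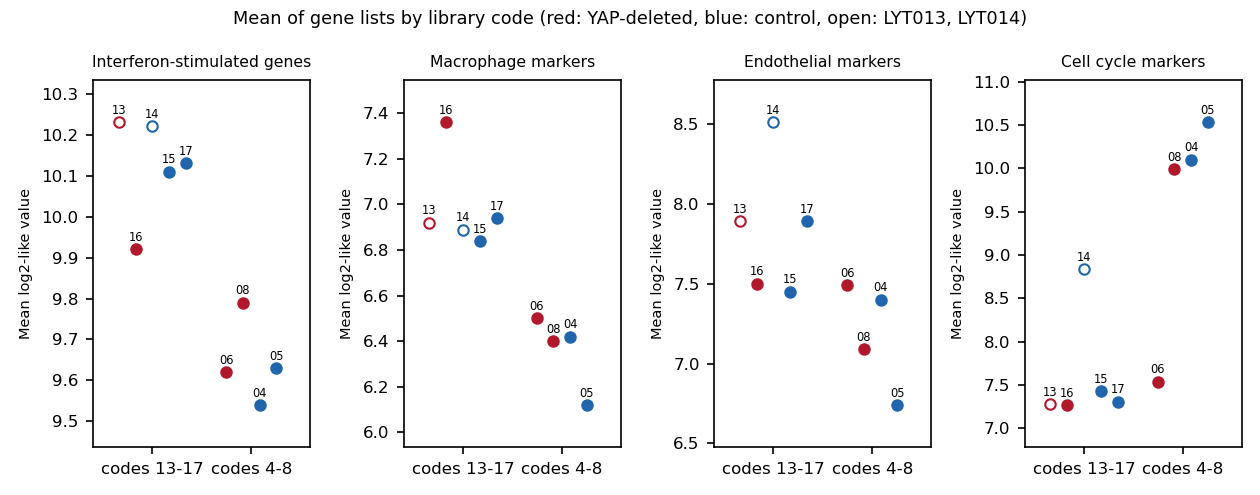
Mean deposited log2-like value of the 37 interferon-stimulated genes and of macrophage, endothelial and cell cycle markers in each library, codes 13 to 17 left and codes 4 to 8 right (red YAP-deleted, blue control, open LYT013 and LYT014). The members lie between 9.92 and 10.23 in codes 13 to 17 and between 9.54 and 9.79 in codes 4 to 8.

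By group, limma called none of these markers. All 10 cell cycle genes were negative, YAP-deleted minus control, with a median of −0.85 log2 units over the 9 libraries and −0.58 over the 7. Their summed level was 1910 to 13739 normalised counts in YAP-deleted libraries and 1871 to 21304 in control libraries. Macrophage markers summed to 1065 to 2640 normalised counts in YAP-deleted libraries and 730 to 1958 in control libraries. Dendritic cell markers summed to 40.8 to 81.8 in YAP-deleted and 27.0 to 172 in control libraries. The 172 was LYT014, nearly all of it H2-Ab1, and the other control libraries had 27.0 to 61.8. Endothelial markers summed to 1588 to 3818 in YAP-deleted and 1008 to 3438 in control libraries. The upper ends of the endothelial ranges were LYT013 and LYT014, and without them the ranges were 1588 to 2062 in YAP-deleted and 1008 to 2758 in control libraries. All of those ranges overlapped. The count of calls was 0 for each of these lists in the 9 and in the 7 libraries.

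The rest of the pathway likewise had no call between the groups. Of 12 interferon genes, 8 were at 0 in every library and 1, Ifnz, was measured often enough to be tested, at 0 to 16.9 normalised counts. The 6 receptor subunit genes were all tested and 0 were called in either comparison. Ifnar1, a subunit of the type I receptor that was picked out after its values were seen, had 1729, 1660, 1699 and 1704 normalised counts in YAP-deleted LYT006, LYT008, LYT013 and LYT016, against 1846, 1889, 1973, 1842 and 1743 in control LYT004, LYT005, LYT014, LYT015 and LYT017. Every YAP-deleted library lay below every control library, which held for 1 of the 6 receptor genes, against 1.15% of all genes in the 9 libraries and 3.66% in the 7. The Ifnar1 difference was −0.13 ± 0.08 log2 units over the 9 libraries with a limma adjusted p of 0.653, and −0.10 ± 0.07 over the 7 with a limma adjusted p of 0.844. Ifnar2, the other type I subunit, had 5208 to 5478 in YAP-deleted libraries apart from LYT013, at 7695, and 4382 to 5504 in control libraries apart from LYT014, at 5934. Ifngr1, the ligand-binding subunit for interferon gamma, had 1394 to 1870 in YAP-deleted libraries apart from LYT013, at 2082, and 1289 to 1820 in control libraries, with LYT014 at 1557. Of 12 JAK and STAT genes and their inhibitors, 0 were called. The feedback inhibitor gene Socs3 had 14539 to 34224 in YAP-deleted and 11459 to 23029 in control libraries, with the highest value of each group in LYT013 and LYT014. Among 18 tested genes of nucleic acid sensing upstream of interferon, 0 were called.

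A further 71 interferon-stimulated genes that are not among the 37 gave 0 calls of 69 tested over the 9 libraries and 0 of 68 over the 7. Their median difference between the groups was −0.08 over the 9 libraries and −0.04 over the 7. Across code ranges 1, Tgtp1, was called higher over the 9 libraries, against 0.151% of all genes, and 1, Mndal, lower, against 0.477%. Of their 31-base words, 84.4% and 28.7% also occur in other genes, so the split of reads between copies is uncertain for both. Over the 7 libraries 18 were called higher, against 3.21% of all genes, and 1 lower, against 4.68%. Their median was 0.26 over the 9 and 0.23 over the 7. Rnf213, a large ubiquitin ligase, differed by 0.83 over the 7 with a limma adjusted p of 0.00819.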

How the data were processed

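The table deposited by the authors holds log2-like values, after a variance-stabilising transformation, for each gene name and library. The submitters' processing notes list bcl2fastq 2.20, kallisto 0.44.0, sleuth and the builds GRCm38, GRCh38 and mm10 without roles. The labels describe poly-A and ribosomal depletion preparations without saying which library received which. The column for LYT013 is headed with an added suffix. Counts were recovered from the values by inverting their form, and 100.0% of values came out whole within 0.1 in every library. The recovered counts served for normalised counts and voom. Differences came from limma 3.58.1 (R 4.3.3) on the deposited values, YAP-deleted minus control, with a mean-variance trend, for genes present in 4 or more libraries, two-sided, Benjamini-Hochberg at 0.05 over all genes. Yap1 had an exact permutation test. Alternatives varied filters, scaling, transformation, moderation, library weights, covariates and the libraries kept. Transcript lengths and positions came from GENCODE M21 on GRCm38, with lengths for 37 of 37 members, and promoters from RefSeq. The members and the gene lists were chosen with earlier results of these data known. Values in every library are given for members under an unadjusted p of 0.05, the 3 smallest p-values per comparison, the highest level per length in each role and the 5 largest spreads. The code range comparison, and leaving out LYT013 and LYT014 there and for Yap1, were added after the data were seen.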

Additional observations from a re-analysis of the deposited data

Results flagged for a closer look

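Single libraries that stood far from the rest of their group were sought by Dixon's gap over range on the log2-like scale. They occurred in 9 of 76 groups (37 members and their mean, each in the YAP-deleted and the control group). Chance flags about 1 in 20 independent groups, but these groups share the same libraries and are not independent. The share flagged over all genes was not computed. The highest library of the YAP-deleted group was LYT013 for Irf1 (ratio 0.843), Isg15 (0.834) and Iigp1 (0.854), and its lowest was LYT013 for Gbp7 (0.948) and LYT006 for Gbp3 (0.829). The highest library of the control group was LYT014 for Irf1 (0.730), Gbp2 (0.892), Iigp1 (0.711) and Irgm1 (0.771). LYT013 or LYT014 was the library in 8 of the 9. Over all genes, LYT013 was the highest library for 26.8% and the lowest for 26%, and LYT014 was the highest for 9.26%.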

How the results depend on the processing

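The count of members called between the groups was 0 under all 24 alternatives with 9 libraries and all 22 with 7, which covered filters, scaling, transformation, moderation, weights, covariates, code ranges and omitted libraries. Their median difference lay between −0.21 and 0.15 in both. These ends were smaller than the spread between libraries of a group, 0.32 over the 9 libraries and 0.31 over the 7. They were not smaller than the 0.12 between libraries of the same code range. Leaving out each library gave −0.16 to 0.06 with 9 libraries and −0.17 to 0.03 with 7. The Yap1 difference ran from −1.77 to −1.14 when each library was left out, with −1.76 without control LYT014, and was −2.22 without LYT013 and LYT014, given with no test because these libraries stood out by their Yap1 level. Across code ranges the called members numbered 20 with library weights, 17 without LYT013 and LYT014, and 0 with the macrophage or the cell cycle covariate. They numbered 0 to 11 with each library left out: 11 without LYT013, 8 without LYT016, 2 without LYT014, 1 without LYT006, and 0 without LYT008, LYT004, LYT005, LYT015 or LYT017. The median there ran from 0.39 to 0.51 with libraries left out and was 0.84 with the macrophage covariate. The macrophage mean did not overlap between the code ranges, so that fit cannot tell them apart. The cause of these changes was not tested. Oas3 and Mx1 had larger differences on other scales, with Oas3 at −0.76 by voom over 9 libraries against −0.17. No paired analysis was possible because the groups share no replicate number. Of tests on the recovered counts, only voom was run. Depth limits statements on Oas3 and Mx1, and a single YAP-deleted library limits the contrast within codes 13 to 17 without LYT013 and LYT014.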

Other observations

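Tgtp1, an interferon-inducible T cell specific GTPase gene outside the 37, had 895 to 2283 normalised counts in library codes 13 to 17 and 3.2 to 11.5 in codes 4 to 8. Its near copy Tgtp2 had 1201 to 3070 in codes 13 to 17 and 1667 to 2282 in codes 4 to 8, and 84.4% of the 31-base words of Tgtp1 transcripts occur in another gene. Mndal, of the interferon-inducible p200 family, ran the other way, with 623 to 1298 in codes 13 to 17 and 2011 to 2255 in codes 4 to 8, and 28.7% of its words are shared. Both genes were chosen here after their values were seen.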
